A study of Mus musculus with 15 samples.

Results

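Mouse T cell leukemias whose BCAT1 was inhibited by a short treatment with ERG-245 were compared with leukemias grown from Bcat1 knock-out cells. The 3 libraries of WT0 treated with ERG-245 were set against the 6 libraries of KO7 and KO3, the leukemias with Bcat1 knocked out, which makes 9 of the 15 libraries of the series. Genes were reported when they differed from KO7 and from KO3 in the same direction and lay on an autosome.

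All leukemias were driven by ΔE-NOTCH1, a shortened, ligand-independent form of the receptor introduced by retrovirus into GFP+ Lineage- cKit+ Sca1+ marrow progenitors. WT0 with ERG-245 had a Bcat1 wild-type genotype and came from leukemia-bearing mice that received 3 intraperitoneal doses of 30 mg per kg, given 8 h apart. KO7 and KO3 came from Bcat1 knock-out progenitors and are labelled as PBS-treated, with no ERG-245. WT0 with PBS and WT6, both Bcat1 wild type and labelled PBS, are given beside them only to place the values. Hosts of all groups were lethally irradiated C57BL/6J mice, and RNA was taken from spleen leukemic T cells, so the libraries can hold RNA of host spleen cells. The sex and age of the animals, the deleted part of Bcat1 and whether 1 mouse or several gave the 3 libraries of a group were not given in the sources used here, so p-values measure only the spread between these libraries, which may be technical.

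BCAT1 is the cytosolic enzyme that transfers the amino groups of the branched-chain amino acids leucine, isoleucine and valine onto 2-oxoglutarate, giving glutamate and branched-chain keto acids, and BCAT2 is its mitochondrial counterpart. Keto acids are broken down further in mitochondria, while leucine itself signals through mTORC1 and a shortage of amino acids through ATF4. NOTCH1 drives T cell leukemia by switching on genes of early thymocytes, among them Ptcra, Il2ra, Hes1 and Dtx1. Deletion lasts through the whole life of a leukemia, whereas an inhibitor acts on an established one, and the sources used here give no measure of BCAT1 activity in either.

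Total counts were 19988338 to 20840752 per library with ERG-245, 17645879 to 20066885 in KO7 and 20633146 to 21068573 in KO3. Libraries of 1 group were close to each other, with a biological coefficient of variation of 2.18%. It was 42.7% between leukemias when counts were summed per group, taken from KO7 and KO3 and from WT0 with PBS and WT6. Each group carried its own T cell receptor beta chain: Trbv16 took 49.9% of the TRBV counts with ERG-245, Trbv5 79.1% in KO7 and Trbv15 85.6% in KO3, beside Trbv17 with 39.7% in WT0 with PBS and Trbv19 with 54.4% in WT6. Xist, the transcript of the inactive X chromosome, took 0.279 to 0.285% of counts with ERG-245, against 0.0106 to 0.0109% in KO7 and 0.0211 to 0.0224% in KO3. The Y-linked gene Ddx3y took 2.95e-05 to 5.5e-05% with ERG-245, against 0.0064 to 0.00701% in KO7 and 0.00699 to 0.00734% in KO3. Inhibition, clone and the sex of the leukemic cells therefore cannot be told apart in these groups, and sex-linked genes were not reported.

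Bcat1 (chromosome 6, bases 144993835 to 145076157 in GRCm38.p6) was counted in all 9 libraries. Its level as CPM, the count scaled by edgeR to a common library total with TMM factors, in the order of the replicate numbers, was 13.98, 13.5 and 12.5 CPM with ERG-245, against 2.11, 2.67 and 1.48 CPM in KO7 and 6.85, 6.17 and 7.85 CPM in KO3. The inhibited libraries lay above all 6 knock-out libraries, and both knock-out leukemias kept some counts. WT0 with PBS had 17.8 ± 0.955 CPM and WT6 35.2 ± 0.416 CPM (mean ± SD, n = 3 each, here and below). The log2 difference was 2.67 ± 0.13 against KO7 and 0.94 ± 0.10 against KO3 (fitted value ± SE, as in all such pairs below; edgeR quasi-likelihood test, adjusted p = 1.2e-30 and 3.0e-14). Bcat2 had 74.8, 78.1 and 78.3 CPM with ERG-245, against 62.2, 65.2 and 61.6 CPM in KO7 and 71.6, 72.2 and 76.4 CPM in KO3. It was higher with ERG-245 than in KO7 by 0.29 ± 0.04 on the log2 scale (edgeR, adjusted p = 9.6e-10), and its difference from KO3 of 0.07 ± 0.04 missed the threshold (adjusted p = 0.096).

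Of 15441 autosomal genes tested with edgeR's quasi-likelihood test, 5328 were higher with ERG-245 than in KO7 (34.5%) and 4979 were lower (32.2%) at an adjusted p under 0.05. Against KO3, 4985 were higher (32.3%) and 5381 lower (34.8%). Both comparisons share the ERG-245 libraries. By the rule of the comparison, 2758 genes were higher than in both knock-outs (17.9%) and 2591 were lower than in both (16.8%), while 2252 passed in both with opposite signs (14.6%). A further threshold of 2-fold in both comparisons left 373 higher genes (2.42%) and 354 lower genes (2.29%), of which 358 (2.32% of those tested) and 316 (2.05%) had inhibited libraries beyond all 6 knock-out libraries. Against KO7 alone, 904 genes were at least 2-fold higher (5.85%) and 1130 lower (7.32%), and against KO3 alone 1495 were higher (9.68%) and 924 lower (5.98%). In 2614 of the higher genes (16.9% of those tested) and 2370 of the lower genes (15.3%), the 3 inhibited libraries also lay beyond all 6 knock-out libraries. The median log2 difference of all autosomal genes was 0.01 against KO7 and -0.01 against KO3.

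When counts were summed per leukemia, so that 1 inhibited leukemia stood against 2 knock-out leukemias with 2 residual degrees of freedom, edgeR called 0 genes in either direction at an adjusted p under 0.05. At an unadjusted p under 0.05, 268 of 17933 autosomal genes were higher and 198 lower in that fit. All differences below are therefore between these 3 leukemias, measured against the spread between libraries of 1 group. The summed fit also held WT0 with PBS and WT6 as wild type, and its residual degrees of freedom came partly from them.

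The 12 largest genes per direction had to have all 3 inhibited libraries beyond all 6 knock-out libraries. That separation was set by the choice and is not a result. The genes that stood highest above both knock-outs included a pair of mast cell proteases, an oligoadenylate synthetase gene, a lysosomal protease and several secreted or membrane proteins. Mcpt2, a chymase-like protease of mucosal mast cells (chromosome 14, bases 56021584 to 56044635), had 112, 109.7 and 104 CPM with ERG-245, against 0.201, 0.568 and 0.341 CPM in KO7 and 0.756, 0.374 and 0.60 CPM in KO3. The inhibited libraries were far above every other library of the series, WT0 with PBS (0.395 ± 0.117 CPM) and WT6 (1.15 ± 0.163 CPM) included. The log2 difference was 8.20 ± 0.12 against KO7 and 7.54 ± 0.10 against KO3 (edgeR, adjusted p = 1.8e-65 and 3.7e-67). Mcpt4, a chymase of connective tissue mast cells, had 14.6 ± 0.618 CPM with ERG-245, against 1.19 ± 0.286 CPM in KO7 and 2.68 ± 0.341 CPM in KO3. The 15 mast cell and basophil marker genes together took 0.0175 to 0.0181% of counts with ERG-245, against 0.00813 to 0.00844% in KO7 and 0.00548 to 0.00568% in KO3. Mcpt2 gave 6274 of the counts of this list with ERG-245, and the other 14 genes, summed without it after the values were seen, took 0.00746 to 0.00764% with ERG-245, against 0.00811 to 0.00839% in KO7 and 0.0054 to 0.00562% in KO3. Without Mcpt2 the share with ERG-245 was thus under that of KO7. Of the 14 tested, 3 were higher than in both knock-outs (Mcpt2, Mcpt4 and Kit) and 4 lower. Those 4, named after their values were seen, were the basophil proteases Mcpt8 and Prss34, the IgE receptor gene Fcer1a and the histidine decarboxylase gene Hdc.

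Oas1e, a member of the 2'-5' oligoadenylate synthetase 1 family, had 63.6, 65.2 and 63.8 CPM with ERG-245, against 1.16, 0.398 and 1.53 CPM in KO7 and 0.378, 0.561 and 0.323 CPM in KO3. All 3 inhibited libraries were above all other libraries, with 0.856 ± 0.267 CPM in WT0 with PBS and 0.492 ± 0.0955 in WT6. Ctsf, which encodes the lysosomal cysteine protease cathepsin F, had 195, 195 and 198 CPM with ERG-245, against 29.6, 27.3 and 28.1 CPM in KO7 and 7.04, 7.61 and 8.35 CPM in KO3. Its log2 difference was 2.79 ± 0.04 against KO7 and 4.67 ± 0.05 against KO3 (edgeR, adjusted p = 4.5e-64 and 8.3e-74). Reln, which encodes the secreted glycoprotein reelin, had 52.9 ± 1.24 CPM with ERG-245, against 7.38 ± 0.999 CPM in KO7 and 3.24 ± 0.2197 CPM in KO3. Col18a1, which encodes the alpha chain of collagen XVIII, had 91.5 ± 2.65 CPM with ERG-245, against 17.9 ± 1.71 CPM in KO7 and 9.15 ± 0.852 CPM in KO3. For Reln and Col18a1, WT0 with PBS (13.5 ± 0.414 and 15.5 ± 0.495 CPM) also lay under the inhibited libraries.

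Ly6k, a GPI-anchored protein of the Ly6 family, reached 24.00, 23.6 and 24.4 CPM with ERG-245, against 0.352, 0.227 and 0.341 CPM in KO7 and 0.142, 0 and 0.138 CPM in KO3. It was at or near 0 in both knock-outs, but WT0 with PBS also had 6.46 ± 0.5598 CPM. The rest of the 12 largest higher genes were Homer2, a scaffold protein, Paqr6, a membrane receptor for progestins, the long non-coding RNA Lincred1, Acsl6, which activates long-chain fatty acids, and Arhgdig. Their log2 differences lay between 2.39 (Arhgdig) and 3.42 (Homer2) against KO7 and between 3.13 (Acsl6) and 5.61 (Paqr6) against KO3.

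**Figure D1:**
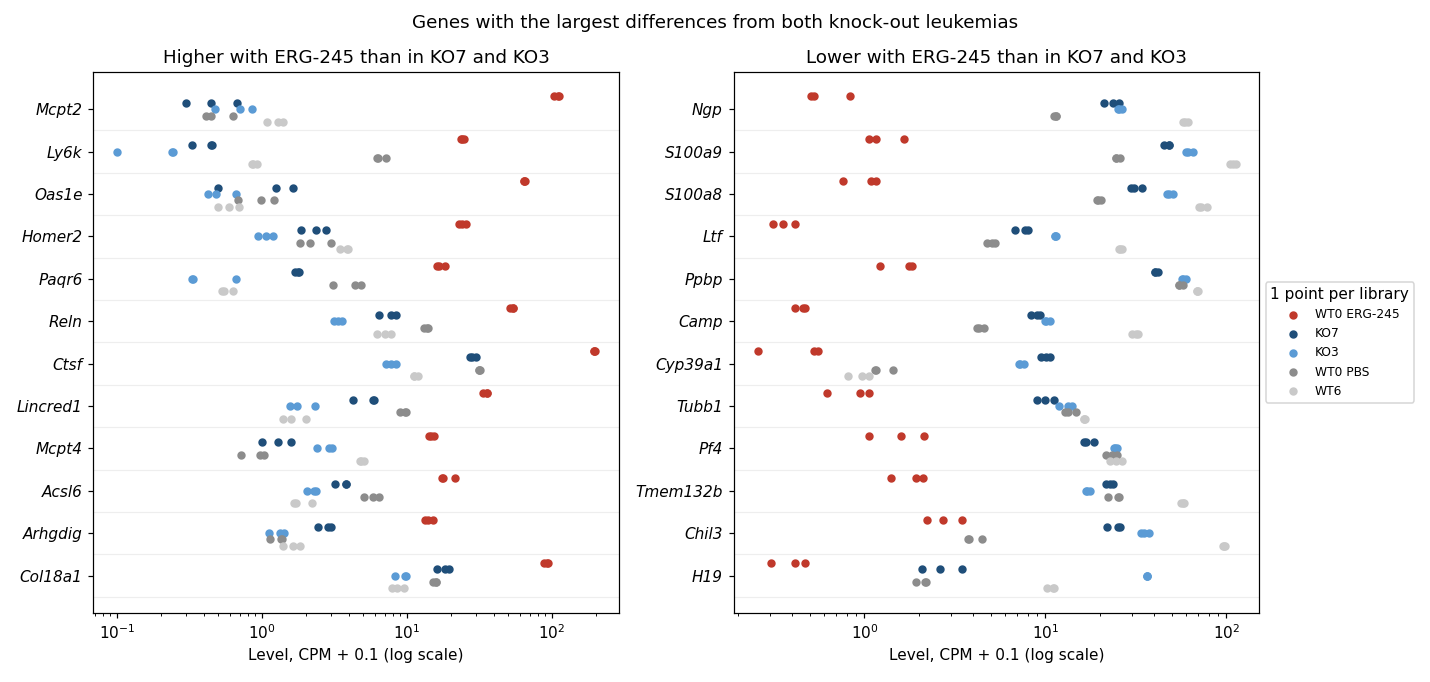
Level of the 12 genes with the largest difference per direction from both knock-outs (horizontal log axis, CPM + 0.1), with 1 point per library and colours for WT0 with ERG-245, KO7, KO3, WT0 with PBS and WT6. By the choice of these genes, the red points of WT0 with ERG-245 lie to the right of all knock-out points in the left panel. In the right panel they lie to the left of them, also by that choice. For Chil3 and Cyp39a1 the points of WT0 with PBS lie nearer to WT0 with ERG-245 than the knock-out points do.

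The 12 largest lower genes were mostly genes of neutrophils and platelets. Ngp, the neutrophilic granule protein (chromosome 9, bases 110419808 to 110423012), had 0.424, 0.7296 and 0.405 CPM with ERG-245, against 20.96, 25.4 and 23.7 CPM in KO7 and 25.4, 25.2 and 26.5 CPM in KO3. S100a9, a subunit of the neutrophil protein calprotectin, had 0.953, 1.56 and 1.06 CPM with ERG-245, against 48.4, 45.3 and 48.1 CPM in KO7 and 65.03, 61.5 and 60.00 CPM in KO3. Its partner S100a8, the lactoferrin gene Ltf, the cathelicidin gene Camp and Chil3, a chitinase-like protein of neutrophils and macrophages, were lower too, with log2 differences of -5.13, -4.81, -4.64 and -3.16 against KO7 and of -5.75, -5.41, -4.84 and -3.71 against KO3. For all of these genes, Ngp and S100a9 included, the inhibited libraries lay under every knock-out library by the choice of the genes.

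Ppbp, which encodes a platelet chemokine precursor, had 1.11, 1.67 and 1.72 CPM with ERG-245, against 40.2, 41.97 and 40.1 CPM in KO7 and 60.2, 57.6 and 56.9 CPM in KO3. Pf4, platelet factor 4, had 1.49 ± 0.535 CPM with ERG-245, against 17.1 ± 1.18 CPM in KO7 and 24.3 ± 0.526 CPM in KO3, and Tubb1, the beta tubulin of platelets, had 0.777 ± 0.229 CPM with ERG-245, against 9.95 ± 1.05 CPM in KO7 and 12.99 ± 1.03 CPM in KO3. For all 3, WT0 with PBS stood with the knock-outs, at 55.7 ± 1.76 CPM for Ppbp and 23.3 ± 1.69 CPM for Pf4. Neutrophil markers took 0.00193 to 0.00198% of counts with ERG-245, against 0.0157 to 0.0164% in KO7 and 0.0215 to 0.022% in KO3, and platelet markers 0.00582 to 0.00622%, against 0.0184 to 0.0191% in KO7 and 0.0201 to 0.0208% in KO3. For neutrophil markers WT0 with PBS stood apart from the knock-outs too, at 0.0087 to 0.0089% of counts, and 15 of 17 were lower in WT0 with PBS than in KO7 and 15 lower than in KO3. Fewer cells of a type and less RNA per cell cannot be told apart in such bulk samples.

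The remaining 3 of the 12 lower genes were Cyp39a1, Tmem132b and H19. Cyp39a1, an oxysterol hydroxylase of bile acid synthesis, had 0.424, 0.156 and 0.456 CPM with ERG-245, against 9.35, 9.996 and 10.6 CPM in KO7 and 7.04, 7.52 and 7.15 CPM in KO3. It was low in every wild-type leukemia, with 1.14 ± 0.164 CPM in WT0 with PBS and 0.846 ± 0.129 in WT6. H19, an imprinted non-coding RNA, had 0.295 ± 0.0854 CPM with ERG-245, against 2.62 ± 0.687 CPM in KO7 and 36.5 ± 0.195 CPM in KO3, so that both knock-outs lay above the inhibited libraries but far from each other. Tmem132b, a transmembrane protein gene, had 1.71 ± 0.368 CPM with ERG-245, against 22.5 ± 0.926 CPM in KO7 and 17.02 ± 0.422 CPM in KO3.

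Gene lists for the pathways around BCAT1, for NOTCH1 and T cell stages, for growth and stress, and for cell types of the spleen were counted in the same way, 27 pathway lists and 11 marker lists in all. At most 3 members of a list were not autosomal and at most 5 fell under the filter on low counts, and the counts below are of the members tested. Lists are read against the share of all autosomal genes, 17.9% higher and 16.8% lower. The list members named below were picked by the size of their differences from both knock-outs. Of all genes that passed in both, 2614 of 2758 higher and 2370 of 2591 lower ones had no overlap between inhibited and knock-out libraries. Where a named member shows no overlap with the knock-outs, that follows largely from this choice and is not a separate result. S phase genes, genes of G2 and M phase, oxidative phosphorylation, NRF2 and redox genes and interferon response genes were often higher. T cell receptor genes, immediate early genes and NOTCH1 targets were often lower.

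**Figure D2:**
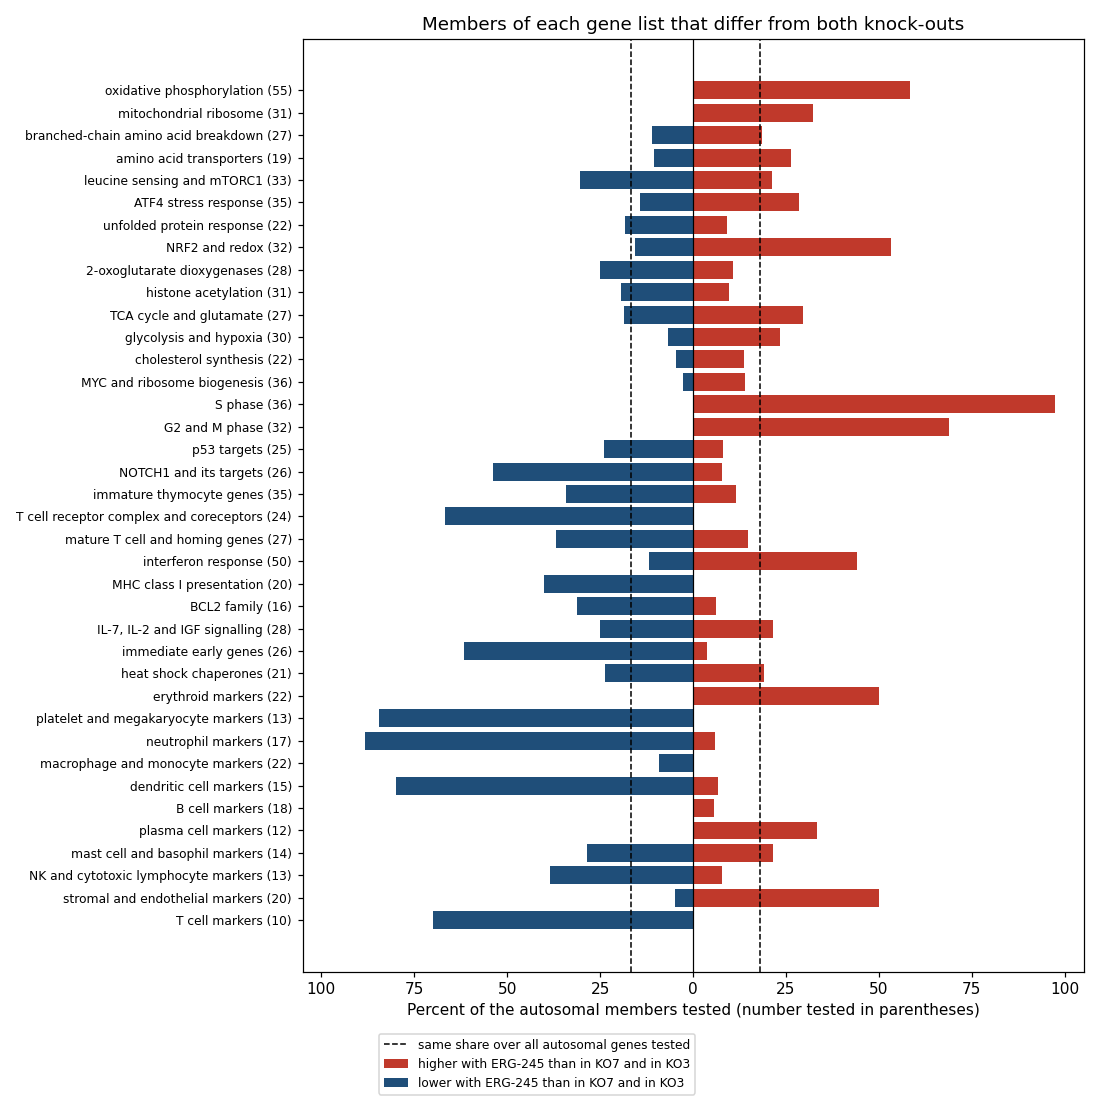
Percent of the tested autosomal members of each list (horizontal axis, number tested in parentheses) that were higher with ERG-245 than in KO7 and KO3 (right, red) or lower than in both (left, blue), with dashed lines at 17.9% and 16.8% for all autosomal genes. The longest red bar is that of the S phase list (97.2%) and the longest blue bar is that of the neutrophil markers (88.2%).

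Genes of DNA replication were higher in the inhibited leukemia nearly throughout. Of 36 S phase genes, 35 were higher than in both knock-outs and 0 were lower, with a median log2 difference of 0.37 against KO7 and 0.31 against KO3. Tk1, which encodes the thymidine kinase of the salvage pathway, had 292, 304 and 305 CPM with ERG-245, against 189, 196 and 188 CPM in KO7 and 169, 175 and 169 CPM in KO3. Ccne1, cyclin E1, which starts S phase, had 142 ± 3.05 CPM with ERG-245, against 95.7 ± 2.32 CPM in KO7 and 57.4 ± 3.702 CPM in KO3. Both had no overlap between the inhibited and the knock-out libraries. All of Mcm2 to Mcm7, the subunits of the replicative helicase, were among the higher genes (named after their values were seen), and the 1 member that did not pass was Pold1, a subunit of DNA polymerase delta, whose log2 difference was 0.52 against KO7 and 0.01 against KO3. Cdt1, which loads that helicase onto origins, had 176, 187 and 192 CPM with ERG-245, against 131, 129 and 123 CPM in KO7 and 119, 118 and 125 CPM in KO3. WT0 with PBS, at 174 ± 2.76 CPM, stood near the inhibited libraries for Cdt1.

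Of 32 genes of G2 and M phase, 22 were higher than in both knock-outs and 0 lower, with medians of 0.19 against KO7 and 0.44 against KO3. Mki67, the proliferation marker Ki-67, had 2033, 2014 and 2025 CPM with ERG-245, against 1534, 1500.2 and 1551 CPM in KO7 and 810.4, 809.6 and 783 CPM in KO3. Birc5, the survivin gene, had 357 ± 7.29 CPM with ERG-245, against 268 ± 2.75 CPM in KO7 and 194 ± 2.997 CPM in KO3. Top2a, which encodes a topoisomerase of dividing cells, had 877 ± 13.1 CPM with ERG-245, against 672 ± 17.2 CPM in KO7 and 647 ± 7.99 CPM in KO3, and Cenpa, the centromeric histone, had 222 ± 1.61 CPM with ERG-245, against 169.9 ± 5.81 CPM in KO7 and 143 ± 3.17 CPM in KO3. The inhibited libraries were above all 6 knock-out libraries for each of these 4 genes. In WT0 with PBS, Mki67 was 2142 ± 39.2 and Top2a 934 ± 11.9 CPM, above the inhibited libraries. Set side by side, 24 S phase genes were higher and 6 lower in the ERG-245 libraries than in WT0 with PBS (median 0.13), and for G2 and M phase 8 were higher and 15 lower (median -0.08). WT0 with PBS itself was higher than KO7 in 29 S phase genes and 25 of G2 and M phase, and higher than KO3 in 26 and 30. Erythroid markers, which mark another dividing cell type of the spleen, took 5.04 to 5.4% of counts with ERG-245, against 6.1 to 6.41% in KO7 and 1.24 to 1.28% in KO3, and their part in these counts was not tested.

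The promoters of S phase genes are known targets of E2F factors, so the E2F letters TTTCCCGC, TTTCGCGC, TTTGCCGC and TTTGGCGC were looked up on both strands in RefSeq windows of 250 bases before to 50 bases after gene starts (GRCm38.p6). A window existed for 11794 of the 15441 autosomal genes tested, and 4.32% of those genes held a match, as did 2.26% of all 32851 windows. Of the S phase genes with a window, 11 of 28 held one (39.3%), and of the genes of G2 and M phase 1 of 27 (3.7%). Among all genes higher than in both knock-outs 6.68% held a match, and among all lower genes 3.01%. The window of Cdt1 (plus strand, chr8:122567765-122568064) is printed because Cdt1 is 1 of the named S phase genes and holds a match, shown in capitals, while no match was found in the windows of Tk1 and Ccne1.
Cdt1: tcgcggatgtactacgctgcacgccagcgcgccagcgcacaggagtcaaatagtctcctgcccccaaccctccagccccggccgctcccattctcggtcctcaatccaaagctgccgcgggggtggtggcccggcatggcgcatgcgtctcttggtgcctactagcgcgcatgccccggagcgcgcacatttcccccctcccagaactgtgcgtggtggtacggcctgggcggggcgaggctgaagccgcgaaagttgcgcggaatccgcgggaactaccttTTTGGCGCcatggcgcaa

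Many mitochondrial energy genes were higher by small amounts. Of 55 nuclear genes of oxidative phosphorylation, 32 were higher with ERG-245 than in both knock-outs and 0 were lower, with medians of 0.17 against KO7 and 0.11 against KO3, and no member reached 2-fold. Ndufb9, a subunit of complex I, had 187, 180.2 and 183 CPM with ERG-245, against 132, 126 and 126 CPM in KO7 and 124, 121 and 117 CPM in KO3. Atp5o, a subunit of ATP synthase, had 288 ± 8.03 CPM with ERG-245, against 212 ± 4.56 CPM in KO7 and 212 ± 4.78 CPM in KO3, and Cox4i1, a subunit of cytochrome oxidase, had 542 ± 10.8 CPM with ERG-245, against 422 ± 5.31 CPM in KO7 and 422 ± 8.63 CPM in KO3. The inhibited libraries of these 3 genes were above all knock-out libraries. In WT0 with PBS the values were 112 ± 5.37, 226 ± 6.18 and 397 ± 8.08 CPM. All 55 members were higher in the ERG-245 libraries than in WT0 with PBS (median 0.35), while WT0 with PBS was lower than KO7 in 41 members and lower than KO3 in 46.

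Ribosomal proteins of the mitochondrion followed in part, with 10 of 31 higher and 0 lower, at medians of 0.17 against KO7 and 0.00 against KO3. Mrpl28, a protein of the large subunit, had 101 ± 1.23 CPM with ERG-245, against 67.3 ± 0.623 CPM in KO7 and 70.04 ± 2.28 CPM in KO3. In the TCA cycle and glutamate list 8 of 27 were higher and 5 lower. The higher ones included Pcx, pyruvate carboxylase, with 40.3, 42.2 and 46.2 CPM with ERG-245, against 19.1, 20.3 and 18.1 CPM in KO7 and 8.41, 7.75 and 7.15 CPM in KO3, and Pck2, the mitochondrial phosphoenolpyruvate carboxykinase, with 129 ± 2.99 CPM with ERG-245, against 80.7 ± 2.02 CPM in KO7 and 32.2 ± 1.801 CPM in KO3. The lower ones included Mdh1, cytosolic malate dehydrogenase, with 193 ± 2.71 CPM with ERG-245, against 269 ± 3.66 CPM in KO7 and 293 ± 7.98 CPM in KO3, and Gpt2, which moves amino groups between alanine and 2-oxoglutarate, with 3.97 ± 0.563 CPM with ERG-245, against 7.17 ± 0.505 CPM in KO7 and 10.2 ± 0.426 CPM in KO3. The inhibited libraries were above the knock-outs for Pcx and under them for Mdh1 and Gpt2 with no overlap.

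Glycolysis and hypoxia genes stood at 7 higher and 2 lower of 30. Ldhb, the heart-type lactate dehydrogenase subunit, had 23.4, 24.03 and 23.5 CPM with ERG-245, against 134, 136 and 134 CPM in KO7 and 67.1, 66.1 and 66.6 CPM in KO3. Its log2 difference was -2.51 against KO7 and -1.49 against KO3 (edgeR, adjusted p = 9.5e-61 and 1.1e-43), and it was also low in WT0 with PBS, at 32.1 ± 0.931 CPM. Pfkm, the muscle-type phosphofructokinase, had 88.05 ± 3.02 CPM with ERG-245, against 60.6 ± 2.51 CPM in KO7 and 40.5 ± 0.428 CPM in KO3, and Vegfa, the angiogenic factor, had 26.6 ± 0.993 CPM with ERG-245, against 18.3 ± 0.5801 CPM in KO7 and 12.4 ± 0.208 CPM in KO3.

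Genes of branched-chain amino acid breakdown showed no common direction, with 5 of 27 higher and 3 lower, and medians of 0.07 against KO7 and -0.07 against KO3. Besides Bcat1 the higher ones included Pccb, a subunit of propionyl-CoA carboxylase, with 51.9 ± 2.01 CPM with ERG-245, against 42.96 ± 1.07 CPM in KO7 and 40.2 ± 1.48 CPM in KO3. The lower ones included Auh, an enoyl-CoA hydratase of leucine breakdown, with 43.4 ± 1.14 CPM with ERG-245, against 57.8 ± 2.12 CPM in KO7 and 67.7 ± 1.92 CPM in KO3, and Acad8, the isobutyryl-CoA dehydrogenase of valine breakdown, with 17.9 ± 1.79 CPM with ERG-245, against 22.2 ± 2.02 CPM in KO7 and 23.9 ± 1.73 CPM in KO3. Single libraries of Acad8 came close, with 17.4, 19.9 and 16.4 CPM with ERG-245, against 22.6, 23.9 and 19.9 CPM in KO7 and 24.6, 25.2 and 21.97 CPM in KO3.

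Among the amino acid transporters 5 of 19 were higher and 2 lower. Slc7a5, the LAT1 subunit that carries leucine into cells, had 181, 185 and 186 CPM with ERG-245, against 126, 122 and 118 CPM in KO7 and 103, 101 and 105 CPM in KO3. Every inhibited library was above every knock-out library, and the log2 difference was 0.59 ± 0.03 against KO7 and 0.84 ± 0.03 against KO3 (edgeR, adjusted p = 3.0e-29 and 7.3e-39). Slc38a2, a carrier of neutral amino acids that is induced by amino acid shortage, went the other way, with 134 ± 4.98 CPM with ERG-245, against 175 ± 1.97 CPM in KO7 and 182 ± 5.92 CPM in KO3. Slc6a9, a glycine carrier also used by erythroid cells, had 176 ± 2.28 CPM with ERG-245, against 142 ± 5.098 CPM in KO7 and 26.2 ± 1.45 CPM in KO3. The erythroid marker share given above was lower in KO3 but higher in KO7 than with ERG-245, and its part in Slc6a9 was not tested.

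Leucine sensing and mTORC1 genes were split, 7 higher and 10 lower of 33. Eif4ebp1, the translation repressor that mTORC1 phosphorylates, had 43.7 ± 1.32 CPM with ERG-245, against 30.97 ± 0.577 CPM in KO7 and 24.2 ± 0.803 CPM in KO3. Sesn3, of the sestrin family of amino acid and stress sensors, had 11.8 ± 0.395 CPM with ERG-245, against 17.5 ± 0.748 CPM in KO7 and 18.02 ± 1.33 CPM in KO3. Both Nprl subunits of the GATOR1 complex, which restrains mTORC1, passed in opposite directions: Nprl3 had 53.1 ± 1.89 CPM with ERG-245, against 42.2 ± 1.903 CPM in KO7 and 27.2 ± 0.638 CPM in KO3 and Nprl2 had 16.5 ± 0.582 CPM with ERG-245, against 25.2 ± 1.63 CPM in KO7 and 22.97 ± 0.944 CPM in KO3. In the ATF4 list, 10 of 35 were higher and 5 lower. Mthfd2, a mitochondrial folate enzyme, had 122 ± 1.64 CPM with ERG-245, against 83.9 ± 3.01 CPM in KO7 and 78.9 ± 3.08 CPM in KO3, and Cebpg, a partner of ATF4, had 46.3 ± 0.376 CPM with ERG-245, against 74.8 ± 0.351 CPM in KO7 and 74.4 ± 2.79 CPM in KO3. Atf4 itself, named after its values were seen, differed by -0.32 from KO7 and by 0.14 from KO3 on the log2 scale.

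In the unfolded protein response 2 of 22 were higher, the sensor genes Ern1 (21.2 ± 1.21 CPM with ERG-245, against 11.1 ± 0.893 CPM in KO7 and 12.8 ± 0.958 CPM in KO3) and Atf6 (63.96 ± 1.33 CPM with ERG-245, against 45.95 ± 1.66 CPM in KO7 and 49.3 ± 2.01 CPM in KO3), and 4 were lower. Enzymes that use 2-oxoglutarate, the co-substrate of BCAT1, stood at 3 higher and 7 lower of 28. Tet3, a DNA demethylase, had 103 ± 3.88 CPM with ERG-245, against 67.4 ± 0.371 CPM in KO7 and 83.3 ± 1.69 CPM in KO3 and Kdm7a, a histone demethylase, 125 ± 3.25 CPM with ERG-245, against 98.7 ± 4.75 CPM in KO7 and 55.4 ± 3.29 CPM in KO3. Kdm6b, a demethylase of H3K27, was lower with 70.7 ± 1.87 CPM with ERG-245, against 117 ± 6.43 CPM in KO7 and 90.3 ± 2.27 CPM in KO3. Tet3, Kdm7a and Kdm6b each had inhibited libraries apart from both knock-outs. Writers, readers and erasers of histone acetylation had 3 higher and 6 lower of 31. Hat1, which acetylates new histone H4, was higher with 157 ± 4.94 CPM with ERG-245, against 106 ± 5.07 CPM in KO7 and 116 ± 5.07 CPM in KO3, and the reader gene Brd1 was lower with 93.7 ± 2.29 CPM with ERG-245, against 118 ± 3.73 CPM in KO7 and 119 ± 2.47 CPM in KO3.

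Antioxidant genes formed a list with large single differences. Of 32 NRF2 and redox genes, 17 were higher than in both knock-outs and 5 lower, with medians of 0.20 against KO7 and 0.35 against KO3. Nqo1, a quinone reductase and textbook NRF2 target (chromosome 8, bases 107388225 to 107403205), had 65.9, 64.8 and 71.97 CPM with ERG-245, against 21.7, 19.9 and 17.7 CPM in KO7 and 6.71, 7.24 and 4.98 CPM in KO3. Srxn1, sulfiredoxin, had 39.3, 40.03 and 40.7 CPM with ERG-245, against 12.5, 11.5 and 12.4 CPM in KO7 and 5.38, 4.39 and 4.89 CPM in KO3. Gsta4, a glutathione transferase for lipid aldehydes, had 23.3 ± 1.59 CPM with ERG-245, against 7.96 ± 1.64 CPM in KO7 and 2.55 ± 0.218 CPM in KO3, and Gpx4, the phospholipid peroxidase, had 445 ± 15.4 CPM with ERG-245, against 266 ± 9.35 CPM in KO7 and 223 ± 6.68 CPM in KO3. In each of the 4 the inhibited libraries were above every other library, and WT0 with PBS had 15.3 ± 1.27 CPM of Nqo1 and 9.14 ± 0.559 CPM of Srxn1. The log2 difference of Nqo1 was 1.77 ± 0.06 against KO7 and 3.42 ± 0.08 against KO3 (edgeR, adjusted p = 1.3e-38 and 7.8e-53).

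The 5 lower redox genes were Hmox1, Txn1, Prdx5, Pgd and Gstm1, of which all but Hmox1 are named after their values were seen. Hmox1, heme oxygenase, had 168, 164 and 165 CPM with ERG-245, against 588, 586 and 583 CPM in KO7 and 172, 171 and 175 CPM in KO3. Its difference from KO3 was small, -0.06 ± 0.03 (edgeR, adjusted p = 0.039) and no longer passed under DESeq2, and the macrophage and monocyte list, which also holds Hmox1, took 0.216 to 0.22% of counts with ERG-245, against 0.513 to 0.518% in KO7 and 0.215 to 0.217% in KO3. The antioxidant response letters TGACNNNGC were found in 9 of 27 genes of the list with a window (33.3%), 16.8% of all tested genes with a window and 12.4% of all windows. Srxn1 (plus strand, chr2:152105274-152105573) holds 1 match on the opposite strand, in capitals, and is printed as the named member with a match. No match was found in the windows of Nqo1 and Gpx4. Only these letters in these windows were searched, so a missing match does not show that a gene lacks an antioxidant response element.
Srxn1: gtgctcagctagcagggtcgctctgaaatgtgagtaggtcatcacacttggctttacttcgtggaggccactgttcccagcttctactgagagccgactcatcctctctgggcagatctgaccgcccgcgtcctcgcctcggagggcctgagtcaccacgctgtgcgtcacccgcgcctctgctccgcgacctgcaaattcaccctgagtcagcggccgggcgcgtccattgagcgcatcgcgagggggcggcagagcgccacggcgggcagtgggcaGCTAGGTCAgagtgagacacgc

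Interferon response genes were unevenly higher. Of 50, 22 were higher with ERG-245 than in both knock-outs and 6 lower, with medians of 0.20 against KO7 and 0.62 against KO3, and 7 of the higher ones passed 2-fold in both. Ifit1, which binds viral RNA, had 54.5, 53.5 and 55.3 CPM with ERG-245, against 11.5, 12.3 and 12.7 CPM in KO7 and 5.76, 5.23 and 5.63 CPM in KO3. Oas3, an oligoadenylate synthetase, had 83.96, 88.8 and 85.7 CPM with ERG-245, against 29.7, 27.1 and 29.9 CPM in KO7 and 13.98, 15.2 and 14.3 CPM in KO3. Oasl1 had 18.5 ± 1.05 CPM with ERG-245, against 5.87 ± 0.721 CPM in KO7 and 2.97 ± 0.205 CPM in KO3 and Oas2 12.2 ± 1.77 CPM with ERG-245, against 4.48 ± 0.596 CPM in KO7 and 4.62 ± 0.329 CPM in KO3. All inhibited libraries of these genes were above all knock-out libraries. Against WT0 with PBS the picture differed by gene, since WT0 with PBS had 12.4 ± 0.904 CPM of Ifit1, 59.7 ± 2.76 CPM of Oas3 and 12.8 ± 0.994 CPM of Oas2.

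The 6 lower interferon genes, named after their values were seen, included Irf1, Ddx58, Gbp4, Irgm2 and Slfn5. Irf1, a transcription factor of the pathway, differed by -0.63 from KO7 and by -0.65 from KO3 on the log2 scale. Genes of MHC class I presentation had 0 higher and 8 lower of 20, with medians of -0.02 against KO7 and -0.24 against KO3. WT0 with PBS itself was lower than KO7 in 18 members and higher in 2, and lower than KO3 in 19 and higher in 1. The ERG-245 libraries were higher than WT0 with PBS in 13 members and lower in 1 (median 0.22). Tap2, a subunit of the peptide transporter, had 155 ± 7.15 CPM with ERG-245, against 298 ± 1.48 CPM in KO7 and 198 ± 3.48 CPM in KO3, and Psmb8, a subunit of the immunoproteasome, had 245 ± 3.18 CPM with ERG-245, against 298 ± 3.64 CPM in KO7 and 351 ± 8.27 CPM in KO3. The class I gene H2-T22 had 136 ± 3.31 CPM with ERG-245, against 189 ± 4.94 CPM in KO7 and 199 ± 0.394 CPM in KO3, and counts of H2 genes may be split among near-identical copies.

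Interferon response letters (GAAA, any 2 bases and GAAA again, on either strand) were found in 22 of 36 genes of the interferon list with a window (61.1%). The share was 3.97% of all tested genes with a window and 3.44% of all windows. They were in 9 of 18 higher members with a window and 3 of 4 lower ones. Both windows below come from named members, with matches in capitals: Ifit1 (plus strand, chr19:34640639-34640938) holds 2 on the opposite strand and Oas3 (minus strand, chr5:120777610-120777909) holds 1, while no match was found for Oasl1.
Ifit1: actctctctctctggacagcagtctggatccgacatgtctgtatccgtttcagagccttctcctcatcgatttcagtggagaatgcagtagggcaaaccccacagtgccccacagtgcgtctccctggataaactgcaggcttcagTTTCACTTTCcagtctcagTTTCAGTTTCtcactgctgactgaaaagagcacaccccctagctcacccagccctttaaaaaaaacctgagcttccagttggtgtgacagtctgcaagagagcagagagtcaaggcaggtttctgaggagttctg
Oas3: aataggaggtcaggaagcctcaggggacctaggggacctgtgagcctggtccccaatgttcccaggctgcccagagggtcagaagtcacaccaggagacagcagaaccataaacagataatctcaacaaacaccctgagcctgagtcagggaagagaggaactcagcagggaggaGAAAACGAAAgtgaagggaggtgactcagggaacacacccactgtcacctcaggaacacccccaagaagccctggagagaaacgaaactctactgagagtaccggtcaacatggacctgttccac

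Many genes of the NOTCH1 program were lower in the inhibited leukemia. Of 26, 14 were lower than in both knock-outs and 2 higher, with medians of -0.27 against KO7 and -0.32 against KO3. Il2ra, the interleukin-2 receptor alpha chain of early thymocytes, had 242, 236 and 227 CPM with ERG-245, against 594, 617 and 603 CPM in KO7 and 666, 680.1 and 666 CPM in KO3. Ptcra, the pre-T cell receptor alpha chain, had 117, 125 and 125 CPM with ERG-245, against 387, 396 and 378 CPM in KO7 and 239, 233 and 243 CPM in KO3. Heyl, a transcriptional repressor that NOTCH induces, had 92.6 ± 3.29 CPM with ERG-245, against 215 ± 8.204 CPM in KO7 and 170.4 ± 3.33 CPM in KO3. In all 3 the inhibited libraries were under WT0 with PBS (498 ± 12.1, 222 ± 1.58 and 198 ± 1.61 CPM). They were also under every knock-out library, as in most genes that passed in both comparisons. The log2 difference of Il2ra was -1.36 ± 0.02 against KO7 and -1.51 ± 0.02 against KO3 (edgeR, adjusted p = 3.3e-58 and 2.9e-62). Notch1 and Notch3, named after their values were seen, were lower too, with log2 differences of -0.52 and -0.74 against KO7 and of -0.38 and -0.31 against KO3. Counts of Notch1 may include reads of the introduced ΔE-NOTCH1, and their part was not tested. The higher ones were Ccr7, a chemokine receptor, with 15.6 ± 0.378 CPM with ERG-245, against 3.95 ± 0.368 CPM in KO7 and 7.92 ± 0.423 CPM in KO3, and Lfng, a glycosyltransferase that acts on NOTCH, named after its values were seen, with log2 differences of 0.29 and 1.42.

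**Figure D3:**
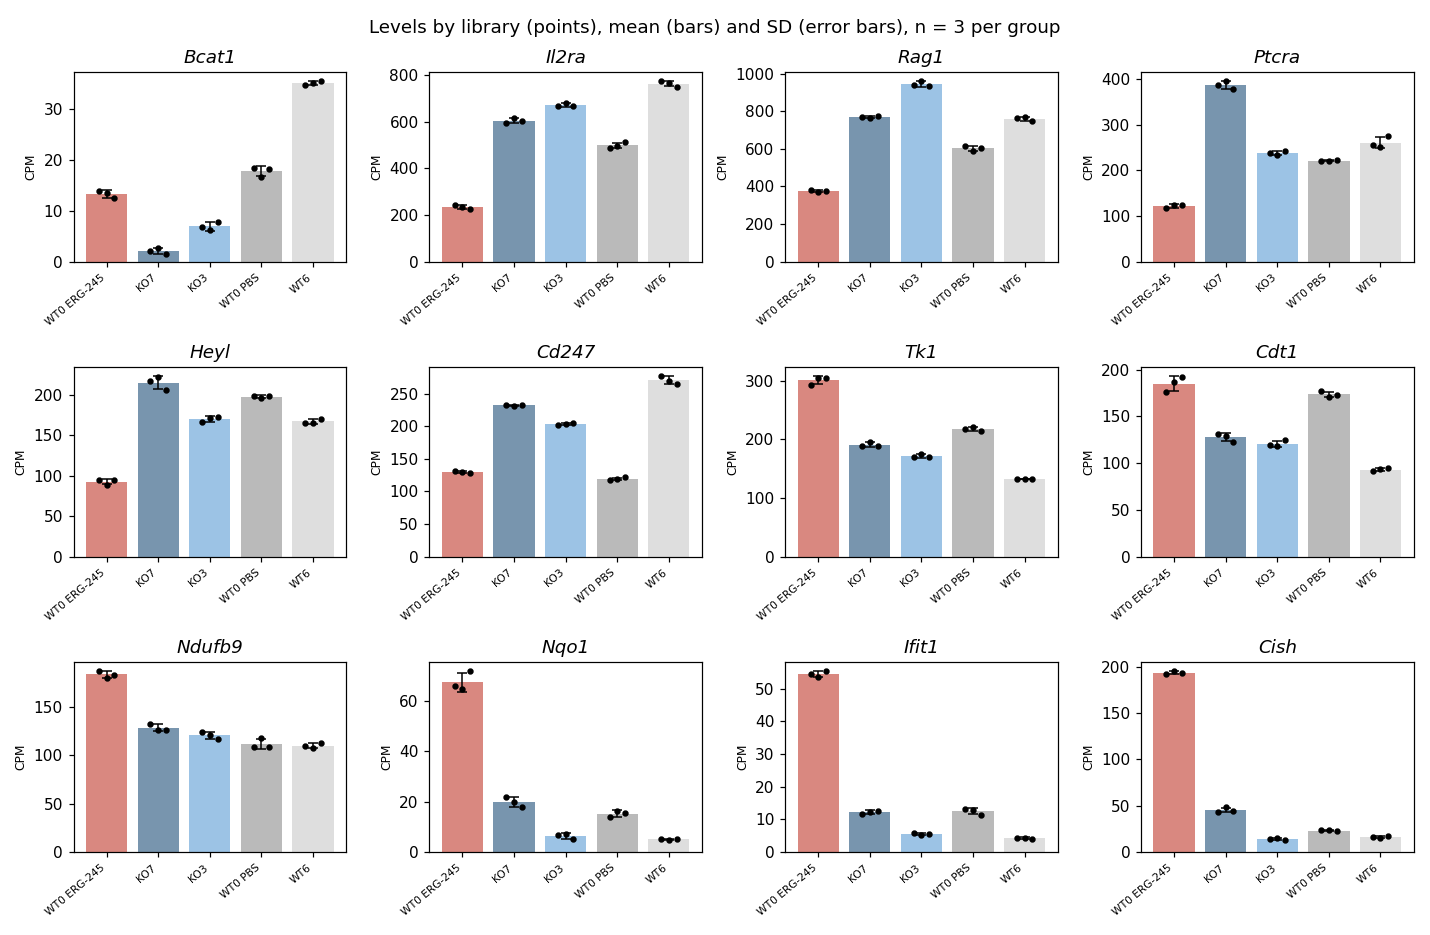
Level in CPM (vertical axes, starting at 0) of 12 genes by group, with points for libraries, bars for means and error bars for SD (n = 3). Il2ra, Rag1, Ptcra and Heyl are lowest in WT0 with ERG-245 among the 5 groups, and Nqo1, Ifit1 and Cish are highest there.

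Immature thymocyte genes stood at 4 higher and 12 lower of 35. Rag1, a subunit of the antigen receptor recombinase, had 382, 372 and 374 CPM with ERG-245, against 768, 765 and 776 CPM in KO7 and 939, 962 and 934 CPM in KO3, and its partner Rag2 had 11.9 ± 0.685 CPM with ERG-245, against 30.3 ± 1.62 CPM in KO7 and 74.5 ± 2.54 CPM in KO3. Both were below all knock-out libraries. The higher ones included Kit, the stem cell factor receptor, with 30.04 ± 1.099 CPM with ERG-245, against 21.6 ± 1.46 CPM in KO7 and 11.5 ± 0.694 CPM in KO3, and Bcl11a, a transcription factor of progenitors, with 48.9 ± 2.01 CPM with ERG-245, against 24.3 ± 1.82 CPM in KO7 and 11.4 ± 0.645 CPM in KO3. Kit and Bcl11a were above all knock-out libraries. The T cell receptor complex and its coreceptors had 0 higher and 16 lower of 24, with medians of -0.35 against KO7 and -0.58 against KO3. Cd247, the zeta chain, had 131, 130.4 and 128 CPM with ERG-245, against 233, 231 and 233 CPM in KO7 and 203, 203 and 205 CPM in KO3. WT0 with PBS, at 119 ± 1.99 CPM, was under the inhibited libraries for Cd247. Fyn, a Src kinase downstream of the receptor, had 93.7 ± 3.19 CPM with ERG-245, against 149 ± 1.37 CPM in KO7 and 139 ± 2.23 CPM in KO3, and Cd5, a modulator of its signal, 46.4 ± 0.894 CPM with ERG-245, against 69.1 ± 1.95 CPM in KO7 and 77.8 ± 2.48 CPM in KO3.

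Mature T cell and homing genes had 4 higher and 10 lower of 27. Itga4, an integrin chain for vascular adhesion, was higher with 289 ± 3.97 CPM with ERG-245, against 188 ± 0.875 CPM in KO7 and 173 ± 5.13 CPM in KO3. Id3, a repressor of E proteins, was lower with 46.3 ± 1.297 CPM with ERG-245, against 67.1 ± 3.25 CPM in KO7 and 87.2 ± 5.102 CPM in KO3. General T cell markers, all 10 of which passed the filter on low counts, had 0 higher and 7 lower. Thy1 had 729.8 ± 3.89 CPM with ERG-245, against 1056 ± 19.2 CPM in KO7 and 1137 ± 20.4 CPM in KO3 and the kinase gene Lck 669 ± 5.23 CPM with ERG-245, against 861 ± 9.43 CPM in KO7 and 1085 ± 11.4 CPM in KO3. The 10 markers together took 0.354 to 0.357% of counts with ERG-245, against 0.456 to 0.463% in KO7 and 0.64 to 0.651% in KO3, beside 0.519 to 0.522% in WT0 with PBS. The part of this lower T cell share in the NOTCH1, thymocyte and receptor lists was not tested. With scaling factors computed without erythroid, immunoglobulin and T cell receptor genes the counts of these lists differed by at most 1 member in each direction. Such factors shift all genes of a library alike, so they cannot test the part of the T cell share.

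**Figure D4:**
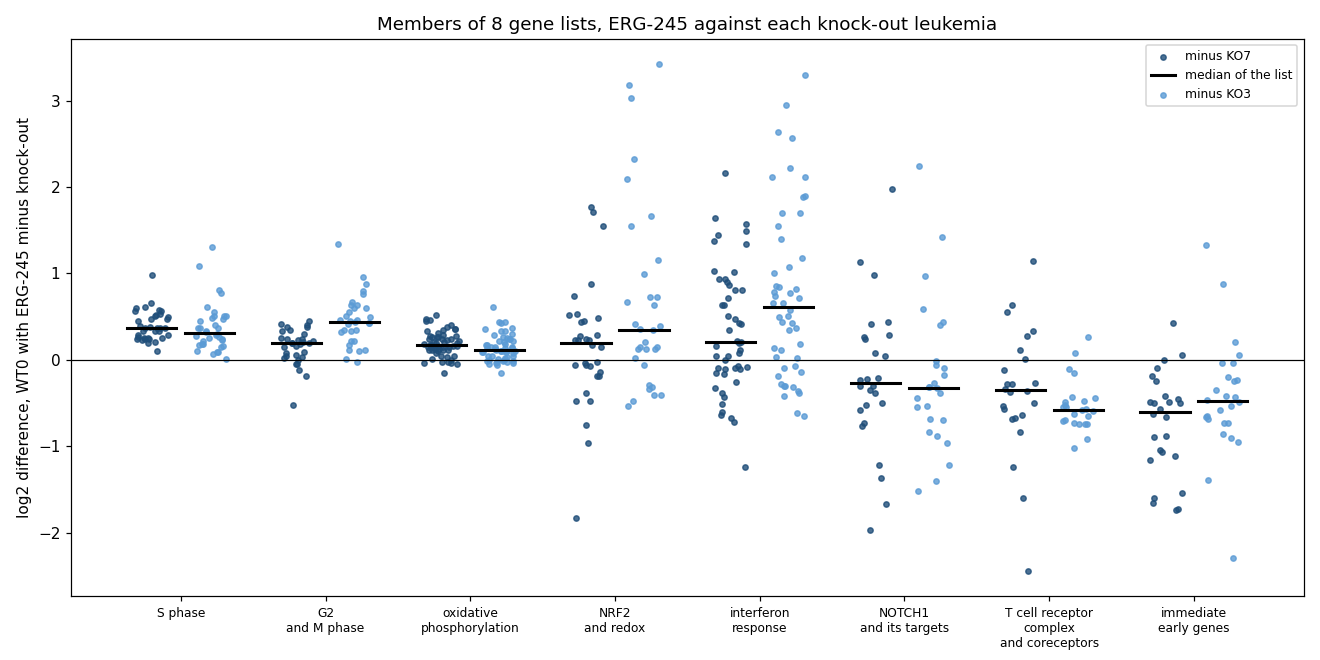
log2 difference of each tested member of 8 lists (vertical axis), with WT0 with ERG-245 minus KO7 in dark blue and minus KO3 in light blue, 1 point per gene and a bar at the list median. S phase points lie above 0 in both comparisons, whereas the NRF2, interferon and NOTCH1 lists spread over both sides of 0.

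Cytokine signalling genes were split, 6 higher and 7 lower of 28. Cish, a STAT5-induced inhibitor of cytokine receptors, had 192, 195 and 194 CPM with ERG-245, against 43.7, 48.1 and 44.4 CPM in KO7 and 13.6, 15.1 and 13.2 CPM in KO3. It was higher by 2.09 ± 0.04 against KO7 and 3.79 ± 0.05 against KO3 on the log2 scale (edgeR, adjusted p = 1.7e-57 and 1.9e-70), and WT0 with PBS had 23.1 ± 0.7397 CPM. Pim1, a kinase gene that STAT5 also induces, had 466 ± 3.699 CPM with ERG-245, against 269 ± 5.999 CPM in KO7 and 122 ± 2.87 CPM in KO3. Socs1, a JAK inhibitor induced by interferon and cytokines, was lower with 14.6 ± 2.47 CPM with ERG-245, against 35.9 ± 1.14 CPM in KO7 and 29.96 ± 2.19 CPM in KO3. The inhibited libraries of Cish and Pim1 stood above all other libraries of the series.

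Immediate early genes, which respond within minutes to receptor signals and to handling of cells, had 1 higher and 16 lower of 26, with medians of -0.60 against KO7 and -0.48 against KO3. Btg2, an antiproliferative gene also induced by p53, had 182, 181 and 178 CPM with ERG-245, against 607, 598 and 599 CPM in KO7 and 298, 301 and 302 CPM in KO3. Jun, an AP-1 subunit, had 14.5, 14.6 and 12.4 CPM with ERG-245, against 19.6, 19.8 and 19.2 CPM in KO7 and 70.8, 62.8 and 70.1 CPM in KO3. Dusp2, a phosphatase of MAP kinases, had 30.7 ± 1.44 CPM with ERG-245, against 66.3 ± 1.801 CPM in KO7 and 57.6 ± 2.04 CPM in KO3, and the transcription factor gene Klf6 had 25.2 ± 0.623 CPM with ERG-245, against 39.8 ± 0.0196 CPM in KO7 and 40.4 ± 1.29 CPM in KO3. Btg2, Jun, Dusp2 and Klf6 were each below all 6 knock-out libraries, and Dusp2 was at 28.3 ± 2.15 CPM in WT0 with PBS. The 1 higher gene, named after its values were seen, was Ier3. The times between death of the mice and lysis of the cells were not given in the sources used here. The cAMP response letters TGACGTCA were in 2 of 22 genes of this list with a window, 3.32% of all tested genes with a window and 1.79% of all windows.

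Among p53 targets 2 of 25 were higher and 6 lower. Gadd45a, a stress sensor, had 80.3 ± 2.37 CPM with ERG-245, against 51.9 ± 2.76 CPM in KO7 and 15.05 ± 1.005 CPM in KO3. Pmaip1, the BH3-only protein NOXA, had 10.6 ± 0.729 CPM with ERG-245, against 14.4 ± 0.422 CPM in KO7 and 33.2 ± 0.954 CPM in KO3. In the BCL2 family 1 of 16 was higher and 5 lower. Bmf, a BH3-only protein, had 53.2, 49.4 and 45.8 CPM with ERG-245, against 145, 142 and 148 CPM in KO7 and 85.7, 89.3 and 86.7 CPM in KO3. It was under all knock-out libraries but near WT0 with PBS (40.3 ± 2.47 CPM). Bcl2a1b and Bcl2a1d, both lower, are near-identical copies whose counts cannot be cleanly separated.

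Heat shock chaperones had 4 higher and 5 lower of 21. Hspe1, the mitochondrial chaperonin subunit, had 280.3 ± 1.81 CPM with ERG-245, against 135 ± 8.75 CPM in KO7 and 208 ± 6.102 CPM in KO3, and Dnaja1, a cytosolic co-chaperone, 134 ± 3.12 CPM with ERG-245, against 179.6 ± 2.54 CPM in KO7 and 202 ± 4.48 CPM in KO3. MYC and ribosome biogenesis genes differed mostly from KO7: 33 of 36 were higher than in KO7, but 5 were higher and 19 lower than in KO3, so that 5 were higher and 1 lower than in both. Odc1, which makes polyamines, had 736 ± 7.08 CPM with ERG-245, against 562 ± 1.67 CPM in KO7 and 342 ± 3.02 CPM in KO3. Cholesterol synthesis had 3 higher and 1 lower of 22. Dhcr7, the last enzyme of the pathway, was lower with 34.4 ± 0.934 CPM with ERG-245, against 52.6 ± 2.92 CPM in KO7 and 44.4 ± 3.82 CPM in KO3.

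Marker lists of other spleen cells differed in direction. Dendritic cell markers had 12 lower and 1 higher of 15. H2-Aa, a class II chain, had 39.04, 37.5 and 42.02 CPM with ERG-245, against 89.7, 91.4 and 89.5 CPM in KO7 and 112, 115 and 114 CPM in KO3, with all inhibited libraries under all knock-out libraries. Of 17 neutrophil markers 15 were lower and 1 higher, and of 13 platelet markers 11 were lower and 0 higher. Macrophage and monocyte markers had 2 lower and 0 higher of 22, with 20 lower than in KO7 but 14 higher than in KO3. NK and cytotoxic markers had 1 higher and 5 lower of 13, among them Ccl5 with 2.34 ± 0.282 CPM with ERG-245, against 9.45 ± 0.437 CPM in KO7 and 4.97 ± 0.402 CPM in KO3.

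Erythroid markers had 11 higher and 0 lower of 22, with medians of 0.09 against KO7 and 2.35 against KO3. Taken singly, 11 were higher and 7 lower than in KO7, while all 22 were higher than in KO3. Kel, a red cell antigen, had 339, 344 and 338 CPM with ERG-245, against 249.8, 254 and 258 CPM in KO7 and 55.7, 55.2 and 57.1 CPM in KO3. The inhibited libraries of Kel were above both knock-outs, whereas the summed share of the list with ERG-245 (5.04 to 5.4%) was under that of KO7 (6.1 to 6.41%) and above that of KO3 (1.24 to 1.28%). Stromal and endothelial markers had 10 higher and 1 lower of 20. Col4a1, a basement membrane collagen, had 148 ± 6.94 CPM with ERG-245, against 68.3 ± 1.71 CPM in KO7 and 61.01 ± 3.93 CPM in KO3, and Col3a1, a fibrillar collagen, 33.4 ± 0.167 CPM with ERG-245, against 8.95 ± 0.413 CPM in KO7 and 20.2 ± 0.6199 CPM in KO3. B cell markers had 1 higher and 0 lower of 18, and plasma cell markers 4 higher and 0 lower of 12. Those 4 were the immunoglobulin constant genes Ighg1, Ighg2b, Ighg2c and Igkc, and Igkc was also the 1 higher B cell marker. Plasma cell markers together took 0.382 to 0.388% of counts with ERG-245, against 0.331 to 0.347% in KO7 and 0.387 to 0.39% in KO3. Igha, named after its values were seen, had 6828 counts in total with ERG-245, against 26488 in KO7 and 7485 in KO3. Ighg2b, an immunoglobulin heavy chain constant gene, had 207 ± 3.78 CPM with ERG-245, against 85.4 ± 5.48 CPM in KO7 and 72.5 ± 0.453 CPM in KO3. Immunoglobulin genes together took 0.753 to 0.765% of counts with ERG-245, against 0.758 to 0.777% in KO7 and 0.753 to 0.756% in KO3.

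**Figure D5:**
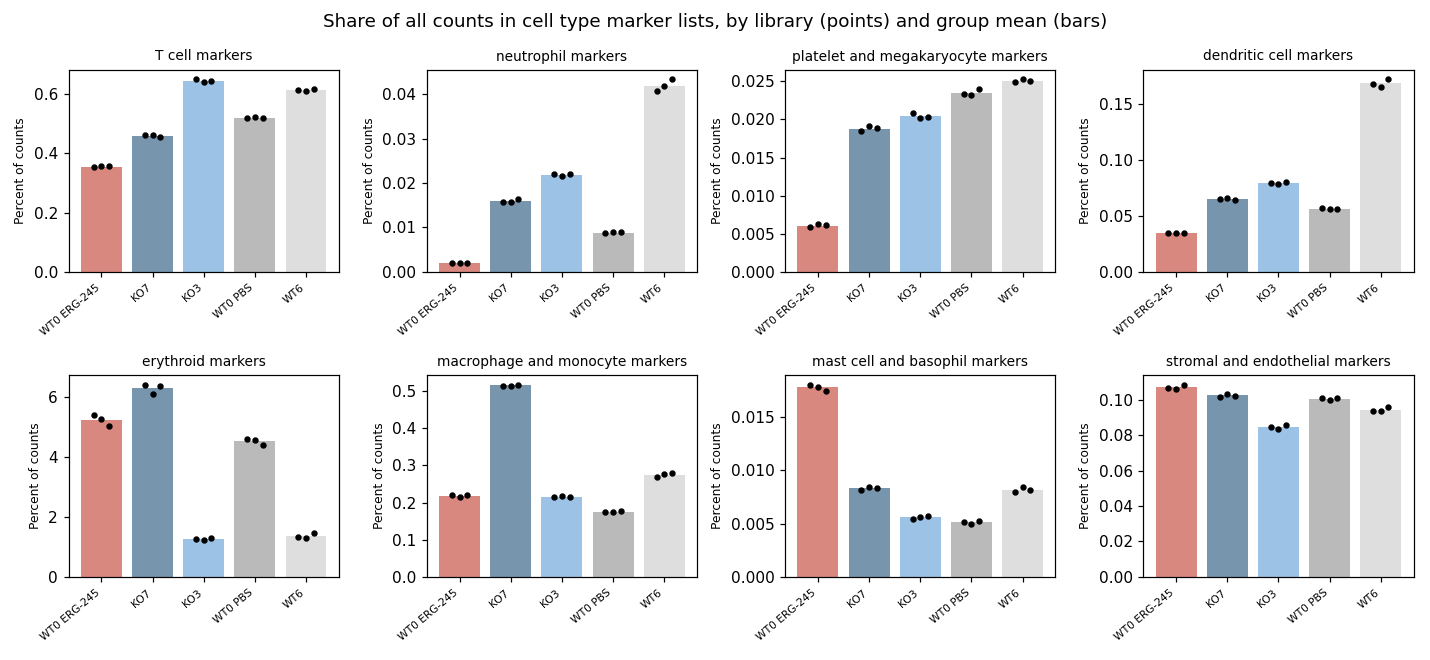
Share of all counts in 8 marker lists (vertical axes, percent, starting at 0), with a point per library and a bar at each group mean. WT0 with ERG-245 is lowest for T cell, neutrophil, platelet and dendritic cell markers and highest for mast cell markers, where Mcpt2 takes most of the counts, while KO3 and WT6 have the lowest erythroid shares.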

How the data were processed

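Spleen leukemic T cells were profiled by RNA-seq (RNeasy kit, stranded TruSeq mRNA library, per the labels' protocols). The authors deposited raw fragment counts per gene, made with featureCounts 2.0.1 on paired fragments over RefSeq exons of GRCm38.p6 (minimum overlap of 25 bases, strand setting 2), per the file headers. The other unit deposited by the authors, the exon length of each gene, was not used. Trim Galore, STAR, Subread, DESeq2 and mm10 stand in the submitters' processing notes without settings. The header's alignment names of the WT0 libraries labelled PBS contain DMSO.

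Of the genes in the table, 39827 were read, while broken lines kept out 3 genes (Neb, Mycbp2 and Huwe1). The 15948 genes kept by edgeR's filterByExpr were fitted over all 15 libraries with TMM factors and the quasi-likelihood test (R 4.3.3, edgeR 4.0.16, limma 3.58.1; 10 residual degrees of freedom), and p-values were adjusted by Benjamini-Hochberg over all genes. The autosomes 1 to 19 are reported. Named genes are Bcat1, Bcat2, the 12 per direction with the largest smaller log2 difference of both comparisons, and up to 4 per list by the same measure. Apart from Bcat1 and Bcat2, a mean of 5 CPM or more in these 9 libraries was required. The first 12 leave out gene models, pseudogenes and receptor segments, and their ERG-245 libraries lie beyond all 6 knock-out libraries. Members, lists and motifs were chosen with earlier results of these data known. The test was tried on simulated counts. Alternatives were DESeq2 1.42.0, RLE factors, TMM factors without erythroid and receptor genes, no filter, the 9 libraries alone, a replicate block, each library left out, sums per leukemia and a 2-fold threshold. Replicates of a group differed by more than sampling noise (chi-square per degree of freedom 1.57 to 3.54), so none was counted as a duplicate.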

Additional observations from a re-analysis of the deposited data

How the results depend on the processing

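Counts of genes that differed from both knock-outs (2758 higher, 2591 lower) stayed within 1.5 times under DESeq2 (2574 and 2404), RLE factors (2772 and 2574), TMM factors without erythroid, immunoglobulin and T cell receptor genes (2737 and 2606), no filter on low counts (2521 and 2705), the 9 libraries alone (2550 and 2748) and each library left out (2585 to 2705 and 2397 to 2544). A 2-fold threshold left 373 and 354 genes, and singly 904 higher and 1130 lower against KO7 and 1495 higher and 924 lower against KO3. With counts summed per leukemia, edgeR called 0 genes higher and 0 lower, with or without the 2-fold threshold. That fit also holds WT0 with PBS and WT6 and has 2 residual degrees of freedom, which come partly from them. The lone inhibited leukemia is assumed to vary like the others. The 151 named genes were chosen from these same counts, so the summed fit gives no separate support for them.

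The replicate block gave 2743 and 2573 genes. Libraries of the same number did not deviate together (r = -0.046 to 0.032, with 0 of 15 libraries best matched by its own number), so the samples share only a number. Outside the sums, calls of named genes changed for 4. Hmox1 lost its call under DESeq2, RLE, the block and without KO3 replicate 3 or ERG-245 replicate 2 or 3 (-0.05 to -0.06 against KO3). Slc7a11 and Stard4 lost theirs without KO3 replicate 1, and Bcat2 gained one without KO3 replicate 3 (0.09). The causes were not tested. No named gene reversed under the alternatives run. Between leukemias, 1 inhibited against 2 with knock-out, with WT0 with PBS and WT6 also in the fit, only 2 residual degrees of freedom remain, whatever the depth.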

Other observations

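All tested autosomal genes, members of the lists included, were also counted by class. Of all of them, 17.9% were higher than in both knock-outs and 16.8% lower, with 2.42% and 2.29% past 2-fold in both. Of 1603 long non-coding RNA genes tested, 210 were higher with ERG-245 than in KO7 and KO3 and 115 lower, and 92 and 45 of them passed 2-fold in both. Their shares were under those of all genes without the 2-fold threshold and above them with it. Protein-coding genes stood at 2422 higher and 2396 lower of 13170, with 220 and 270 past 2-fold. By chromosome, the share of protein-coding genes higher than in both ran between 15.8% (chromosome 13) and 22.4% (chromosome 12), beside 18.4% over all autosomes. The share of lower genes ran between 14.2% (chromosome 18) and 21.2% (chromosome 17), beside 18.2% over all autosomes.

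Of 286 immunoglobulin and T cell receptor segments tested, 87 were higher than in both knock-outs and 51 lower, beside 17.9% and 16.8% of all autosomal genes tested. The share of higher segments was above that of all genes, and the share of lower segments was near it. In the Tra locus 9 of 22 were higher and 0 lower, in Trb 9 of 32 were higher and 10 lower, in Trd 0 of 7 were higher and 4 lower, and in Trg 1 of 9 was higher and 4 lower. Immunoglobulin heavy chain segments, which are typical of B cells and plasma cells, stood at 41 higher and 15 lower of 107. Whether such cells came from host or donor was not tested.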
